A study of Mus musculus with 78 samples.

Results

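The COP9 signalosome is a nuclear and cytoplasmic protein complex that removes the ubiquitin-like protein NEDD8 from cullin-RING ubiquitin ligases and so takes part in their cycles of assembly. Its subunits fall into those with a PCI domain, which build the scaffold (Gps1, Cops2, Cops3, Cops4, Cops7a, Cops7b and Cops8), and those with an MPN domain (Cops5 and Cops6), of which Cops5 carries the metalloprotease site. The 9 genes listed here, with Cops7a and Cops7b as alternative copies of one subunit, are 9 of the 19406 genes with a probe on the Illumina MouseWG-6 v1.1 arrays, and every probe annotated to one of them was taken, 20 of 46643. The complex was chosen by the measured intensity of Cops8, which in NAB mice stood apart from that in HAB and LAB mice, so that its line values are given as a description and without a test.

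HAB mice were bred for high anxiety-related behavior, NAB mice for normal and LAB mice for low, all from CD-1 stock. All animals were males aged 10 weeks, and the study placed them in breeding generation 25. Tissue of the cingulate cortex (Cg), central amygdala (CeA), hypothalamic paraventricular nucleus (PVN), basolateral amygdala (BLA) and dentate gyrus (DG) was taken by laser microdissection, with 1 array per mouse and region. There were 25 HAB, 26 NAB and 24 LAB arrays with values. By the mouse numbers in the sample names, these came from 6 HAB, 7 NAB and 8 LAB mice. The paper reports fewer NAB and LAB mice for this tissue. Whether a number marks the same animal in every region cannot be told, and all results by mouse rest on these numbers. Each group held 5 or 6 arrays outside the DG and 3 arrays in the DG, and this number limits the precision. Arrays of a region were hybridised together, so that region and hybridisation batch cannot be told apart. Less RNA per cell and fewer cells of a type cannot be told apart in such tissue.

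As background of an array served the 95th percentile of the intensity over 1305 receptor probes (odorants and pheromones), at 6.99 to 10.6. From 29.9% to 42.9% of an array's probes exceeded this, and the DG array of HAB mouse 1 had the lowest share. The summed intensity of the 3 tested PVN marker probes was 1694 to 3081 in PVN arrays, against at most 71.3 in arrays of any other region. The 2 tested DG marker probes summed to 504 to 625 in DG arrays, against at most 241 elsewhere. The 3 CeA marker probes summed to 95.96 to 212 in CeA arrays, against at most 79.8 elsewhere. The 5 probes of BLA and cortex markers summed to 471 to 705 in BLA arrays, but to 286.5 to 367 in Cg and 257 to 410 in DG arrays, so that no marker list set the Cg apart.

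Of the 20 probes, 14 passed the filter on low values, all of them in all 5 regions, and together they covered all 9 genes. Of these, 12 were above background in every array. The other pair were Cops4 probe 4230497, above background in 66 of 75 arrays, and the Cops8 probe, in 53 of 75 arrays. The 6 probes that did not pass were the second probes of Cops2 and Cops3, the third of Cops7a and 3 of the 4 of Gps1. Just below the filter, Cops7a probe 102630035 was above background in 8 of 75 arrays, at intensities of 3.97 to 10.3. These 6 probes were not compared further.

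Cops8, which encodes the smallest subunit of the core complex, lies at chr1:90602960-90613341 (RefSeq, GRCm38.p6) and was read by a single probe, 2810541. Its promoter is shown because the line difference of the gene appeared in all 5 regions, with matches to the searched motifs in capitals. The 300 bases at chr1:90603175-90603474, on the plus strand, run from 250 bases before to 50 bases after a RefSeq start site. The annotated gene begins before this window, at 90602960, and the bases around that position were not searched.
Cops8: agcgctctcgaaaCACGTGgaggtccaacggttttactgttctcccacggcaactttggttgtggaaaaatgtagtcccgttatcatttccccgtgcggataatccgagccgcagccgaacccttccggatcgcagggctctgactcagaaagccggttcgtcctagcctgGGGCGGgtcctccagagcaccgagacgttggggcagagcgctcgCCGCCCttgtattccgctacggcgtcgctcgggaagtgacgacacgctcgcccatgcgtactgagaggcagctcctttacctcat
The window held 1 CACGTG, which 7.15% of 32851 RefSeq promoter windows of this length also held on either strand. It held GGGCGG or its reverse complement CCGCCC at 2 places, and 35.7% of the windows held at least 1. It held no CCAAT (37.4% of windows), TATAAA (13.6%) or TGACGTCA (1.79%) on either strand, and no searched motif overlapped another. With 30 CpG dinucleotides it was richer in CpG than 88.3% of the windows. Windows were found for 8 of the 9 genes, and among the 10 windows CACGTG was otherwise present only in the second window of Cops7a. The bases are those of the reference genome, and the sequence of the lines in this window was not analysed here.

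Cops8 was high in every NAB array and near background in most HAB and LAB arrays. In the Cg the probe read 4.44, 6.22, 6.96, 7.78 and 7.88 in HAB mice. The 6 NAB arrays of the Cg ran from 104.6 through a median of 109.9 to 117 and the 6 LAB arrays from 4.88 through 6.71 to 8.94. None of the HAB arrays and 1 of the LAB arrays of this region was above background, whereas all NAB arrays were.

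In the CeA the 6 HAB arrays ran from 4.05 through a median of 7.71 to 10.1 and the 6 NAB arrays from 96.8 through 110.4 to 123, while LAB mice gave 5.95, 6.66, 9.63, 9.65 and 9.85. In the BLA the HAB values were 5.68, 7.29, 7.65, 9.32 and 12.4, the NAB arrays ran from 137 through 155 to 167, and the LAB values were 7.45, 7.73, 7.83, 8.43 and 11.7. Both amygdala regions thus showed the order seen in the Cg, with no overlap of NAB and the other lines.

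In the PVN, where all arrays exceeded background, the 6 HAB arrays ran from 9.43 through 11.9 to 15.0. The NAB values were 116.5, 154, 157, 162 and 164, and the LAB values were 12.2, 12.2, 12.3, 14.3 and 14.4. In the DG the probe read 17.8, 30.3 and 31.8 in HAB mice, 146, 165.6 and 165.7 in NAB mice and 18.7, 20.6 and 32.5 in LAB mice. All 6 DG arrays of HAB and LAB mice were above background, and each exceeded the highest HAB or LAB value of any other region, 15.0.

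**Figure D1:**
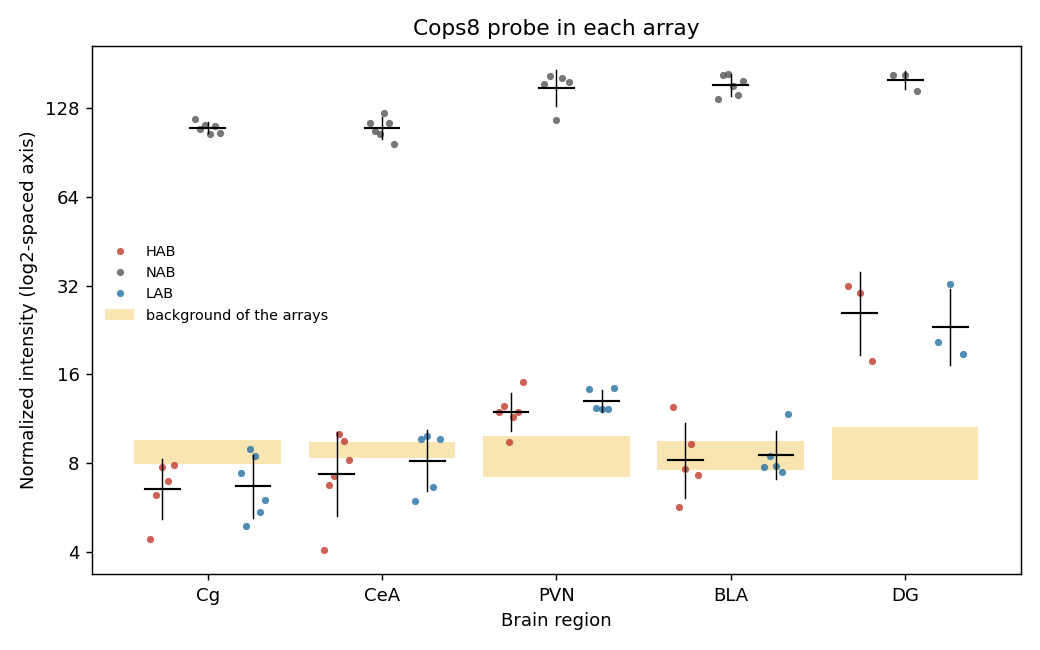
Normalized intensity of the Cops8 probe in each of the 75 arrays (log2-spaced vertical axis), by region and, within a region, for HAB, NAB and LAB mice from left to right. Points are arrays, horizontal bars are means of log2 values, vertical bars are 1 SD, and shading spans the background of the arrays of a region. NAB arrays lie between 96.8 and 167 and HAB and LAB arrays between 4.05 and 32.5.

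Ordered by group mean, the NAB groups led with 159 ± 11.2 in the DG (SD, n = 3), 154 ± 12.6 in the BLA (n = 6), 150.6 ± 19.5 in the PVN (n = 5), 109.9 ± 4.80 in the Cg (n = 6) and 109.8 ± 9.14 in the CeA (n = 6). The ranges of the DG, BLA and PVN groups overlapped, as did those of the Cg and CeA, and the lowest PVN array, at 116.5, also lay within the Cg and CeA ranges. Next came the DG groups of HAB mice, 26.6 ± 7.69, and LAB mice, 23.9 ± 7.47 (SD, n = 3 each), which overlapped. They were followed by the PVN groups, 12.0 ± 1.81 in HAB mice (n = 6) and 13.1 ± 1.15 in LAB mice (n = 5). The remaining 6 groups of HAB and LAB mice had means between 6.66 and 8.64 and ranges that overlapped each other, and the highest of their arrays reached into the PVN range.

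On the log2 scale, Cops8 differed by -3.69 for HAB minus NAB, by 3.65 for NAB minus LAB and by -0.04 for HAB minus LAB over the 5 regions. These values chose the gene and carry no test. They rest on 1 probe, so a difference in RNA and a sequence difference between lines under the probe cannot be told apart. The paper proposes such a sequence effect for Stx3, and for Cops8 it was not tested. HAB arrays of the Cg were all at background, so that Cops8 there was at least 12.55-fold lower in HAB than in NAB mice when the HAB arrays were set at their background. Over all regions 13 of 25 HAB arrays, 26 of 26 NAB arrays and 14 of 24 LAB arrays were above background. With arrays below background set at it, the mean over the 5 regions was at least 11.35-fold lower in HAB and in LAB than in NAB mice. The measured fold was smallest in the DG, at 6.17 for HAB and 6.85 for LAB mice. With arrays below background set at it, Cops8 in the CeA was at least 12.1-fold lower in HAB than in NAB mice. In the BLA it was at least 16.1-fold lower. Of the HAB arrays, 2 of 6 in the CeA and 2 of 5 in the BLA were above background. In the PVN, where none was below, the measured fold was 12.53. The Cg and CeA values are lower bounds and cannot be ranked against the PVN value. As measured, without this floor, the HAB folds were 16.84 in the Cg and 14.94 in the CeA.

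Whether the line differences depended on the region was tested for the other 13 probes only, since the line values of Cops8 chose the gene and lay partly below background. None of the 13 passed (moderated F, limma, adjusted p of 0.726 or more; 0.498% of all 22083 probes passed), and none had an unadjusted p below 0.05.

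Among NAB arrays alone, where Cops8 was always well above background, its level was lower in the Cg than in the other 4 regions, with a log2 difference of -0.36 (SE 0.135, adjusted p = 0.0258; 40.8% of all probes were called) and lower in the CeA at -0.37 (adjusted p = 0.0219; 43.5% called). The limma test was not passed by the PVN difference of 0.19 (adjusted p = 0.295; 41.5% called), the BLA difference of 0.24 (adjusted p = 0.161; 38.6% called) or the DG difference of 0.30 (adjusted p = 0.149; 51.0% called). The 2 calls were lost under quantile normalization of all arrays (adjusted p = 0.146 for the Cg, 0.336 for the CeA) and when single NAB mice were left out. For the Cg these were mouse 4, 13 or 15, with adjusted p up to 0.0827, and for the CeA mouse 2, 4, 8 or 18, with adjusted p up to 0.0723.

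None of the other subunits had a called line difference within a region. Within the 5 regions, none of 195 line differences of the other 13 probes passed limma's test, and 10 had an unadjusted p below 0.05. Of all probes tested in the Cg, 2.47% were called for HAB minus LAB, 2.13% for HAB minus NAB and 2.51% for NAB minus LAB. In the same order the shares for the CeA were 2.22%, 2.06% and 2.63%, and those for the PVN 2.09%, 1.71% and 1.69%. They were 2.25%, 3.05% and 3.39% for the BLA, and 0.761%, 0.659% and 0.627% for the DG.

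Averaged over the regions, 3 of 39 line differences of the 13 probes were called. For HAB minus LAB 1 of 13 was called, against 7.17% of all 22083 probes. For HAB minus NAB none was called by limma, against 6.24%, and 3 had an unadjusted p below 0.05. For NAB minus LAB 2 of 13 were called, against 11.9%. The medians of the 13 probes were -0.06, 0.06 and -0.10, and those of all probes -0.04, 0.00 and -0.03, in the same order.

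Cops6, the MPN subunit that pairs with Cops5, was the first of the 2 called NAB minus LAB differences. It ran from 124 through a median of 164 to 237 in the 26 NAB arrays and from 147 through 191 to 231 in the 24 LAB arrays, and the ranges overlapped. The difference was -0.17 on the log2 scale (SE 0.05, adjusted p = 0.00894). It was lost with both quantile normalizations, without NAB mouse 4 and without the DG arrays (adjusted p = 0.0580 to 0.0703).

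Cops7b, a PCI subunit whose gene lies 4.0 Mb before Cops8 on chromosome 1 (chr1:86582646-86606828), was the second. Its probe 4280022 ran from 19.3 through 30.5 to 42.6 in NAB arrays and from 22.6 through 33.0 to 49.2 in LAB arrays, a difference of -0.15 (SE 0.05, adjusted p = 0.0452). The other probe of Cops7b, 2970484, gave 0.08 (SE 0.08, adjusted p = 0.615). The call for probe 4280022 did not hold in 12 of the 21 fits that left out 1 mouse (highest adjusted p = 0.128, without NAB mouse 8), nor in 5 of 9 other settings (adjusted p up to 0.245).

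The third call belonged to Cops5 (chr1:10024600-10038159), and to only 1 of its 3 probes. Probe 101770402, annotated to a cDNA clone and not to the RefSeq transcript, ran from 11.0 through 29.4 to 36.3 in 25 HAB arrays and from 19.0 through 31.3 to 42.5 in 24 LAB arrays. The difference was -0.31 (SE 0.08, adjusted p = 0.00857). It was -0.24 without HAB mouse 1 (adjusted p = 0.0612) and -0.20 without the DG arrays (adjusted p = 0.127). The lowest value was the DG array of HAB mouse 1, which also had the highest background. The 2 probes on the RefSeq transcript of Cops5 gave 0.00 and -0.01 for the same difference.

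The widest difference that did not pass was that of Cops7a probe 7000022, at -0.33 for NAB minus LAB (SE 0.12, adjusted p = 0.0660). Cops2, Cops3, Cops4 and Gps1 had no called line difference, with values between -0.20 and 0.08. For Cops2 the 95% interval of NAB minus LAB ran from -0.10 to 0.10, and for Gps1 from -0.11 to 0.03. Some cell type marker probes were called between lines as well. Of 5 microglial probes 3 (Aif1, Tmem119 and C1qa) and of 5 endothelial probes 2 (Ly6c1 and Pecam1) were lower in NAB than in LAB mice. So were 2 of 9 astrocyte probes (Slc1a3 and Aldh1l1), where 11.9% of all probes were called. For HAB minus LAB, the contrast of the Cops5 call, 2 of 5 endothelial probes were lower (Ly6c1 and Flt1, with a median of -0.22 over the 5). There 1 of 13 oligodendrocyte probes was higher, and 7.17% of all probes were called. For HAB minus NAB, 2 of 5 microglial probes and 1 of 5 endothelial probes were higher, against 6.24% of all probes called. None of 7 neuronal probes was called for any line contrast, and no astrocyte probe for HAB minus LAB or HAB minus NAB. Summed microglial intensity ran from 75.2 to 180.1 in NAB arrays and from 112 to 179 in LAB arrays, and the part of these markers in the differences was not tested.

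**Figure D2:**
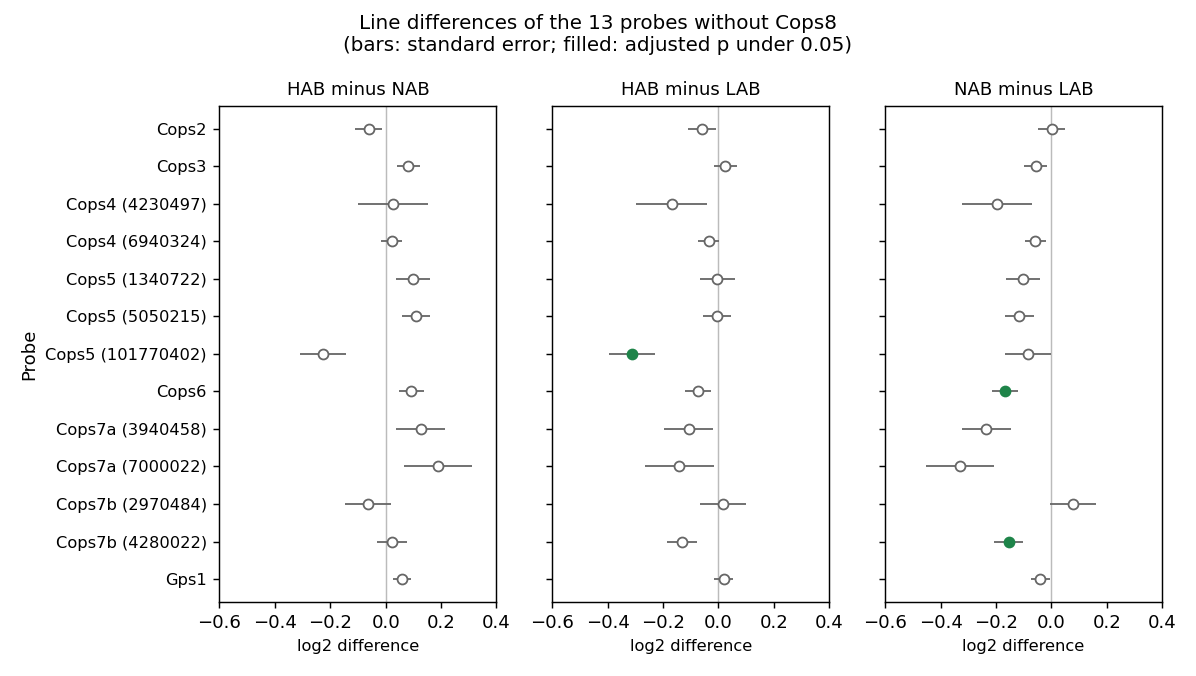
Differences between lines over the 5 regions for the 13 probes other than Cops8 (log2 units, horizontal axis), with standard errors as bars. Filled points are the 3 calls, for Cops5 probe 101770402, Cops6 and Cops7b probe 4280022, and all points lie between -0.33 and 0.19.

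More region than line differences of the subunits were called. Over the 14 probes, 48 of 70 differences between a region and the mean of the other 4 were called, and 50 had an unadjusted p below 0.05. In the Cg 2 probes were higher and 8 lower, against 22.5% higher and 43.3% lower among all probes (65.8% called). In the CeA 1 was higher and 10 lower, against 19.3% and 39.7% (58.9% called). In the PVN 7 were higher and 4 lower, against 32% and 29.7% (61.7% called). In the BLA 4 were higher and 3 lower, against 29.8% and 26.5% (56.3% called), and in the DG 7 were higher and 2 lower, against 41.1% and 29.7% (70.8% called). With 14 probes a region, the counts farthest from these shares were the 10 lower in the CeA and the 7 higher in the PVN, and no test of the shares was made. Of the 48 calls, 32 held under all alternatives and with each of the 21 mice left out in turn.

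The scaffold subunits Cops2, Cops3 and, with probe 6940324, Cops4 had their most negative difference in the Cg and their most positive in the PVN. Cops2 ran from 167 through 221 to 249 in 16 PVN arrays and from 97.7 through 118 to 183 in 17 Cg arrays, against 139 to 214 across the other 3 regions. In the Cg, 2 of the 17 arrays, of HAB mouse 9 and NAB mouse 8, reached into the range of the other regions. The differences were 0.45 in the PVN (SE 0.05, adjusted p = 6.8e-13) and -0.61 in the Cg (SE 0.05, adjusted p = 3.9e-18).

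Cops3 differed by 0.24 in the PVN and by -0.31 in the Cg, with intensities of 219.6 to 299 in the PVN and 158 to 223 in the Cg. Cops4 probe 6940324 differed by 0.40 in the PVN (adjusted p = 5.2e-16) and by -0.30 in the Cg. Its second probe, 4230497, which was near background, showed no called region difference, and the 2 Cops4 probes correlated at r = 0.29 over deviations of the 75 arrays from their group means. The 9 astrocyte marker probes summed to 1078 to 1604 in the PVN, against 728.5 to 1354 elsewhere. Of the 9, 4 were called higher there, against 32% of all probes. Gfap probe 104560398 and Aqp4 probe 6370112 had their highest region mean in the DG, at 160 and 157. Aldh1l1 probe 5080537 had its highest in the Cg, at 37.4. The 7 neuronal marker probes summed to 1781 to 2479 in the PVN, against 2213 to 3674 elsewhere, and 5 were called lower there, against 29.7% of all probes. Endothelial markers summed to 272.6 to 543.8 in the PVN, against 225 to 432 elsewhere. Their part in the differences was not tested.

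Cops5 gave different region profiles by probe. The 2 probes on the RefSeq transcript differed by -0.50 and -0.35 in the CeA and by -0.23 and -0.21 in the Cg. Their PVN differences were 0.29 and 0.22, and their DG differences 0.35 and 0.21. Probe 101770402 was higher in the CeA by 0.47 (adjusted p = 3.8e-07) and lower in the BLA at -0.35 (adjusted p = 0.00012). It read 31.0 through 36.3 to 47.5 in the 17 CeA arrays and 17.8 through 22.4 to 41.4 in the 16 BLA arrays. Over the 15 group means the 2 RefSeq probes correlated at r = 0.97 with each other and at -0.61 and -0.67 with probe 101770402. Under quantile normalization of all arrays the Cg differences of the 2 RefSeq probes were no longer called (adjusted p up to 0.147), nor was the DG difference of probe 1340722 (adjusted p = 0.0523). The DG difference of probe 5050215 changed sign, to -0.02, under this normalization, which moved the median of all probes in the DG from 0.06 to -0.05.

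Cops6 was lower in the CeA, at -0.26 (adjusted p = 3.9e-07), and the Cg, at -0.19, which was -0.02 under quantile normalization of all arrays (adjusted p = 0.745). It was higher in the BLA, at 0.23 (adjusted p = 9.9e-06), and the PVN, at 0.17. Gps1, a PCI scaffold subunit, read 231 through 255 to 289.6 in the 9 DG arrays, above all arrays of the other regions except 1 PVN array at 233. Its difference was 0.39 in the DG (SE 0.04, adjusted p = 1.9e-13), -0.24 in the Cg and -0.23 in the CeA.

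Cops7a and Cops7b, the alternative forms of 1 subunit, peaked in different regions. Cops7a (chr6:124958445-124997903) was highest in the BLA with both probes. Probe 7000022 read 40.7, 53.6, 74.97, 77.9 and 86.8 in the BLA of HAB mice, 60.9 through 69.9 to 106 in the 6 NAB arrays, and 71.9, 79.5, 82.8, 88.2 and 88.3 in LAB mice. The other 59 arrays of this probe lay between 11.3 and 63.1. The BLA difference was 0.91 (SE 0.12, adjusted p = 8.2e-10) for this probe and 0.68 (SE 0.08, adjusted p = 3.6e-10) for probe 3940458, and the 2 probes correlated at r = 0.96 over deviations of the 75 arrays.

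Cops7a was lower in the PVN, at -0.40 (limma, adjusted p = 0.0025) with probe 7000022 and -0.32 (adjusted p = 0.00069) with probe 3940458. In the CeA the values were -0.26 (adjusted p = 0.0459) and -0.32 (adjusted p = 0.00087) in the same order. The CeA call of probe 7000022 was lost in 15 of 21 fits that left out 1 mouse, and the others held under every alternative. In the DG, Cops7a was lower at -0.55 (adjusted p = 0.000704) with probe 7000022 and by -0.27 (adjusted p = 0.0205) with probe 3940458. Probe 7000022 read 14.7, 42.5 and 49.4 in HAB mice, 11.3, 38.6 and 54.8 in NAB mice and 22.5, 39.8 and 59.8 in LAB mice, so that 1 low array in each line, of HAB mouse 1, NAB mouse 4 and LAB mouse 10, lay well below the other 2. The arrays of these 3 mice also had the lowest medians over all probes of the 75 arrays, 5.49, 5.59 and 5.53, against 5.76 to 5.87 in the other DG arrays, and the part of this in the difference was not tested. Without NAB mouse 4 the DG difference of probe 7000022 was -0.33 (adjusted p = 0.0341), and without HAB mouse 1 it was -0.36 (adjusted p = 0.0252). The DG call of probe 3940458 was lost without any 1 of these mice (adjusted p = 0.141 to 0.310). Neuronal markers were highest in the BLA, where they summed to 3173 to 3674, against 1781 to 3464 elsewhere, and their part in the Cops7a difference was not tested.

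Cops7b was highest in the DG. Probe 2970484 read 39.5, 53.8 and 56.7 in the DG of HAB mice, 46.9, 51.4 and 57.1 in NAB mice and 41.5, 48.9 and 51.5 in LAB mice. Every DG array lay above the 66 arrays of the other regions, which ran from 15.8 to 37.5. The difference was 0.92 (SE 0.10, adjusted p = 8.6e-13). Probe 4280022 read 32.7 through 38.3 to 49.2 in the DG, overlapping the other regions at 19.3 to 37.6, with a difference of 0.37 (SE 0.06, adjusted p = 5.9e-07) that was not called under quantile normalization of all arrays (adjusted p = 0.0825). In the BLA the 2 probes gave -0.36, which was not called without the DG arrays (adjusted p = 0.154), and 0.08. Oligodendrocyte markers were lower in the DG for 11 of 13 probes, against 29.7% of all probes. They summed to 550.3 to 735.3 there, against 511.5 to 1941 elsewhere, and their part in the Cops7b difference was not tested.

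**Figure D3:**
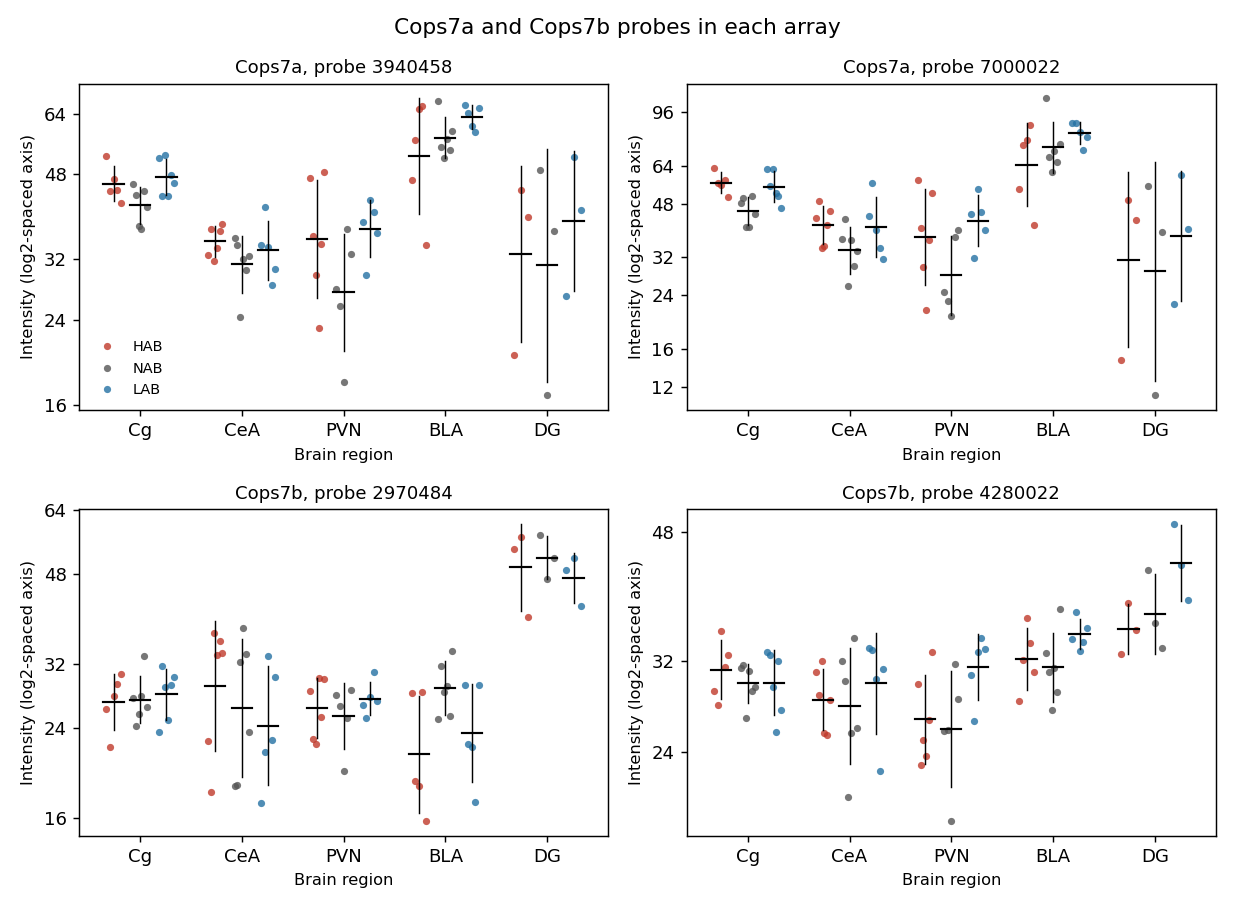
Intensity of the 2 tested Cops7a probes (top) and the 2 Cops7b probes (bottom) in each array (log2-spaced vertical axes), by region with HAB, NAB and LAB mice from left to right. Horizontal bars are means of log2 values and vertical bars 1 SD. Cops7a is highest in the BLA and Cops7b in the DG, where probe 2970484 reads 39.5 to 57.1.

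Cops8 averaged over the lines was higher in the DG by 1.11 (SE 0.10, adjusted p = 3.9e-15) and lower in the Cg at -0.68. These values average NAB arrays with HAB and LAB arrays, which were near background in the Cg, CeA and BLA. All HAB and LAB arrays of the PVN and DG were above background, and those of the DG read 17.8 to 32.5. In NAB mice alone the DG difference was the 0.30 given above, which was not called. The BLA difference of Cops8 was -0.20 (adjusted p = 0.0312). It was 0.08 without the DG arrays and was not called without HAB mouse 5 or 9, NAB mouse 2 or 13, or LAB mouse 7 or 10.

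**Figure D4:**
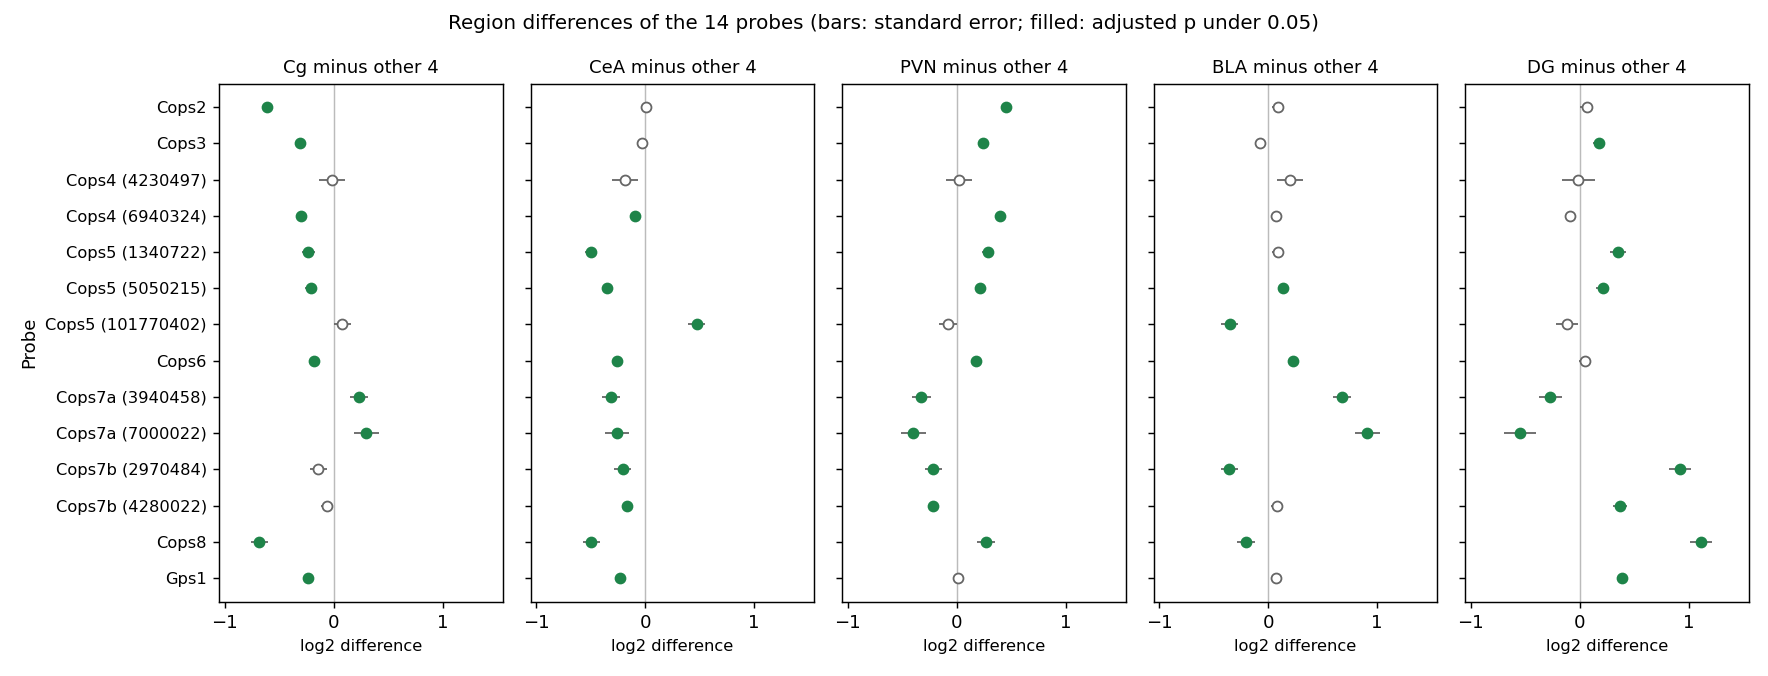
Each region minus the mean of the other 4 for the 14 tested probes (log2 units, horizontal axis), with lines weighted equally and standard errors as bars. Filled points are the 48 calls. Cops7a stands out in the BLA at 0.68 and 0.91, Cops7b probe 2970484 in the DG at 0.92 and Cops8 in the DG at 1.11. The Cops8 value averages NAB arrays with HAB and LAB arrays, which were near background in the Cg, CeA and BLA and above it in the DG. In NAB mice alone the DG difference of Cops8 was not called.

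Line calls among the genes around the complex numbered 0 to 4 for each list and contrast, and the shares of all probes given above apply here too. Among 31 tested probes of cullins and the NEDD8 cycle, 1 was called for HAB minus LAB, 1 for HAB minus NAB and 4 for NAB minus LAB, and the list medians were -0.05, 0.01 and -0.05. Cul9, a large cullin, was higher by 0.34 in HAB than in LAB mice (adjusted p = 0.00138) and by 0.31 in NAB than in LAB mice. Its probe was above background in 39 of 75 arrays, with a LAB mean of 7.43 near background. For Cul5, 1 of 2 tested probes was lower at -0.23 in HAB than in NAB mice (adjusted p = 0.00212), whereas the brighter probe, with means of 65.3 in HAB and 63.1 in NAB mice, was not called. Nedd8 was lower at -0.13 in NAB than in LAB mice, and so was 1 of 3 tested probes of Ube2f, a NEDD8-conjugating enzyme, by -0.30 (adjusted p = 0.0209).

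Of 34 probes of cullin adaptors, 3, 0 and 3 were called for HAB minus LAB, HAB minus NAB and NAB minus LAB. Btrc, an F-box protein that recognises phosphorylated substrates, was higher by 0.46 in HAB (adjusted p = 3.1e-05) and by 0.60 in NAB (adjusted p = 8.6e-08) than in LAB mice. Kctd10, an adaptor of Cul3, was lower at -0.11 in HAB and by -0.15 in NAB than in LAB mice. For Spop, 1 of 2 probes was lower at -0.14 in HAB than in LAB mice, and for Elob 1 of 3 was lower at -0.16 in NAB than in LAB mice.

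The lid of the proteasome and the initiation factor eIF3 are built from PCI and MPN subunits too. Of 13 lid probes only Psmd8 was called, at -0.11 for NAB minus LAB, and of 11 probes of reported associates of the complex only the inositol kinase gene Itpk1, at -0.13. Of 12 eIF3 probes, 1 of 2 for Eif3k was higher by 0.38 in HAB than in NAB mice and lower at -0.44 in NAB than in LAB mice, and 1 of 2 for Eif3l was lower at -0.14 in NAB than in LAB mice. The called Eif3k probe was above background on 38 of 75 arrays, and the brighter Eif3k probe, with means of 72.8 in HAB, 62.4 in NAB and 68.7 in LAB mice, was not called. In the DG 11 of the 12 eIF3 probes were higher, with a median of 0.66, and 8 of 13 lid probes were higher and 2 lower, with a median of 0.16. Among all probes 41.1% were called higher and 29.7% lower in the DG. The signalosome probes had a median of 0.12 there and all probes 0.06.

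Line differences were also read from the neighbours of Cops8 on chromosome 1. Of the 16 nearest genes on both sides, 9 had tested probes, 16 in all. None was called for HAB minus LAB or HAB minus NAB by limma, with smallest adjusted p of 0.367 and 0.267, and the only NAB minus LAB call was the Ube2f probe above, 636.3 kb away. Around Cops7b, 9 of 16 neighbours were tested with 15 probes. Dis3l2, an exonuclease gene 95.1 kb away, was higher by 0.52 in HAB and 0.62 in NAB than in LAB mice with 1 probe (103710692), while its other probe gave 0.10 and 0.05. Armc9 was called with probes that went in opposite directions, such as -0.66 and 0.39 for NAB minus LAB.

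The genes whose 15 group means were most like those of Cops8, among 22082 other probes, were Thap4 (Pearson's r = 0.99), Mtif3 (0.97), Tfb1m (0.96), Rsph3a (0.96) and Rpl21 (0.96). The points share arrays and normalization, and the choice by likeness fixes the direction. Thap4, a THAP-domain gene, lies 3.09 Mb beyond Cops8 on chromosome 1. It ran from 6.19 through a median of 12.0 to 20.8 in HAB arrays, from 15.1 through 27.1 to 42.02 in NAB arrays and from 8.47 through 11.6 to 18.4 in LAB arrays.

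The other 4 genes lay on chromosomes 5 and 17. Mtif3, a mitochondrial translation initiation factor, and Rpl21, a ribosomal protein gene, are 0.11 Mb apart on chromosome 5, and Tfb1m, a mitochondrial rRNA methyltransferase, and Rsph3a, a radial spoke protein gene, are 4.39 Mb apart on chromosome 17. Mtif3 probe 3060168 gave 13.6 to 20.9 in HAB, 27.5 to 47.6 in NAB and 13.9 to 22.7 in LAB arrays, with no overlap of NAB and the others. The other Mtif3 probe, 106290487 (r = -0.12), was above background in 26 of 75 arrays. Its medians were 7.49 in HAB, 7.53 in NAB and 8.50 in LAB arrays. Rsph3a gave 31.3 to 55.4, 72.7 to 119 and 32.2 to 54.8 in the same order. The Tfb1m probe was below background in all 25 HAB and all 24 LAB arrays and above it in all 26 NAB arrays. It thus passed the filter only through the NAB arrays. The chosen Rpl21 probe was below background in all 25 HAB arrays and above it in 25 of 26 NAB arrays. Rpl21 belongs to a family with many near-identical copies, and 3 other probes of it were tested. Probes 104780592 (r = 0.89, medians of 17.2 in HAB, 33.7 in NAB and 17.4 in LAB arrays) and 3610075 (r = 0.82) were highest in NAB arrays too, whereas probe 110176 (r = -0.28) had medians of 83.6, 38.4 and 70.8.

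At the other end of the scale, the lowest correlations of named genes were those of Serpini1 (-0.96), which encodes the inhibitor neuroserpin, Ptprg (-0.94), a receptor tyrosine phosphatase gene, and Nudt19 (-0.93). Nudt19 probe 2970176 ran from 132 to 222 in HAB, 55.9 to 108 in NAB and 130.5 to 235 in LAB arrays, without overlap of NAB and the others. The other Nudt19 probe, 6220253 (r = -0.65), overlapped between lines, with medians of 40.6, 25.7 and 46.1. Another tested Ptprg probe, 2650524 (r = -0.62), overlapped too, with medians of 25.5, 19.4 and 25.9.

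**Figure D5:**
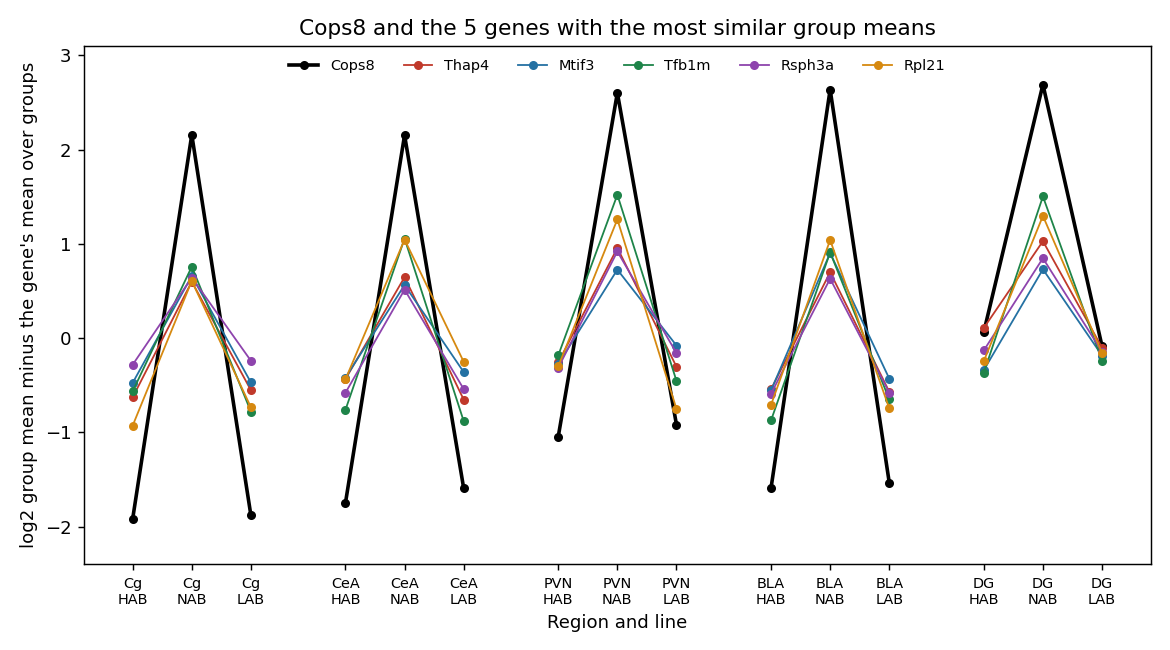
Group means of Cops8 and the 5 genes most like it, as log2 values minus the mean of the 15 groups of each gene (vertical axis), for each region with HAB, NAB and LAB from left to right. NAB is highest for the chosen probe of all 6 genes in every region, and the spread of Cops8 is the widest. HAB and LAB values of Tfb1m, and nearly all of those of Rpl21, were below background.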

How the data were processed

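RNA of laser-microdissected brain regions was hybridised to Illumina MouseWG-6 v1.1 arrays, 1 per mouse and region. The deposited values are linear intensities, which the authors read with BeadStudio and the beadarray packages and normalized with QSpline. Values of 75 of 78 labelled samples were used, since 3 DG samples had none, and 156 columns of a non-normalized table matched no label and were left out. Of 46643 probes, 32794 had 1 gene symbol, 55 several and 13794 none.

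Intensities were taken as log2. Probes entered the test of a region when at least as many arrays as the smallest line had exceeded background (the 95th percentile of receptor probes), which left 17974 to 18664 probes a region and 22083 in any. Lines were compared within regions, and lines and regions in a joint fit of 15 groups with the mouse as random block (limma 3.58.1, R 4.3.3; consensus correlation 0.0142, kept in fits that left out a mouse). P-values were two-sided and Benjamini-Hochberg adjusted over all probes tested, with calls at an adjusted p below 0.05. Arrays were from separate mice within a group. Arrays with the same mouse number deviated together little (mean r = 0.0463 over 114 pairs, against -0.0082 over 628 pairs of different numbers of a line). The highest correlation of 2 arrays was 0.981. The code was tested on simulated data.

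The subunits and the gene lists were chosen with earlier results of these data known. Named were all member probes, up to 3 called genes per related list and line contrast, up to 4 called neighbours per contrast, and the 5 genes most and 3 least like Cops8. Alternatives were other normalizations and centring, 16 added to the intensity, other filters, array weights, no mouse block, leaving out each array or mouse, and the 99th percentile as background. NAB arrays alone and fits without the DG arrays were added after seeing the data.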

Additional observations from a re-analysis of the deposited data

Results flagged for a closer look

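In 10 of 168 groups of 4 or more arrays, 1 array of a member probe lay apart from the rest, where chance gives about 1 in 20. In the CeA of LAB mice, mouse 21 was high for Cops2 (214.4, next 177.2) and Cops3 (258.6, next 229.0). In the PVN of NAB mice, mouse 12 was low for Cops2 (177.7, next 220.9), Cops5 probe 1340722 (75.54, next 97.57) and Cops8 (116.5, next 154.0). That array had 31.1% of its probes above background.

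Cops5 probe 101770402 was high in the Cg of NAB mouse 13 (37.21, next 30.84) and in the PVN of LAB mouse 3 (36.95, next 28.95). Cops7a probe 7000022 was high in the BLA of NAB mouse 2 (106.4, next 75.31) and Cops8 in the BLA of LAB mouse 14 (11.74, next 8.432). Gps1 was low in the BLA of HAB mouse 1 (184.7, next 215.7).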

How the results depend on the processing

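The 0 calls among line differences within regions held under every alternative and with each array left out. The 3 line calls over regions became 5 with only probes above background in every array, and 1 (without NAB mouse 4) to 7 (without NAB mouse 2) with single mice left out. Without the DG arrays there were 2, neither of them among the 3. No line by region call was made among the tested probes other than Cops8 in any alternative or with any mouse left out. The 48 region calls ranged from 46 to 49 with mice left out. Without the mouse as replicate block the counts of line, region and line by region calls were 3, 48 and 0, as with it.

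Signs reversed without the DG arrays for Cops7b probe 2970484 in the CeA (0.02468) and PVN (0.01689) and for Cops8 in the BLA (0.08131). Under quantile normalization of all arrays they reversed for Cops4 probe 6940324 in the CeA (0.06245; in NAB mice 0.004409), Cops5 probe 5050215 in the DG (-0.01895) and Gps1 in the BLA of NAB mice (-0.03157). The cause was not tested. Signal over background limits Cops8 in HAB and LAB mice: at the 99th percentile as background, 8 HAB, 26 NAB and 9 LAB arrays exceeded it. By Spearman correlation Thap4 ranked 6, Mtif3 8, Tfb1m 17, Rpl21 26 and Rsph3a 28 among the probes most like Cops8.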
